A study of Mus musculus with 23 samples.

Results

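The chromatin at the promoters of cytosolic ribosomal protein genes was followed in 3T3-L1 cells, an established mouse line of fat cell precursors. The members were chosen by name, with earlier results of these data known. They are genes called Rpl, Rps or Rplp with a number (ribosomal S6 kinase genes left out) to which the authors assigned an accessible peak. There were 65 such genes, of which 63 had a peak on day -2, 61 on day -1 and 64 on day 0, and 60 had one on all 3 days. These stood among 11026, 8998 and 9366 genes that the authors named on the 3 days, and among 84019, 31970 and 37054 peaks in all. Where a gene had more than 1 peak on a day, the peak with the highest mean signal represented it.

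The assay was ATAC-seq: a transposase inserts sequencing adapters where DNA in the nucleus is open, so more reads in a peak stand for a more open region. All cells were reverse-transfected with 50 nM of siRNA in Lipofectamine RNAiMAX before they were confluent, 24 h ahead of the first sampling. The control arm received a non-targeting siRNA, called scramble here, and the other an siRNA against Kdm5c, an X-linked enzyme that takes methyl groups off lysine 4 of histone H3. Nuclei were taken 24, 48 and 72 h later, on days -2, -1 and 0. Each of the 6 groups had 4 libraries, except Kdm5c siRNA on day 0, which had 3 (replicates 1, 2 and 4). Nothing in the labels says that replicates came from separate cultures, so p-values measure the spread between these libraries, which may be technical. The siRNA acts on the mRNA of Kdm5c, and transcripts were not measured, so these counts do not check the knockdown.

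Ribosomal proteins join ribosomal RNA in the nucleolus to form the small and the large subunit of the ribosome, and each subunit needs nearly all of its proteins in equal number. Their genes are therefore known for steady and coordinated expression in dividing cells. Many of their mRNAs begin with a C followed by a run of pyrimidines, the terminal oligopyrimidine tract, through which mTOR signalling sets their translation. Their promoters are known for short motifs close to the start, among them sites for ETS family factors such as GABP, sites for YY1, and a TATA-like stretch in some.

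RefSeq promoter windows (GRCm38.p6, 250 bases before to 50 bases after the start of transcription) were at hand for 49 of the 65 members, and the start of 47 of them lay inside a member's own peak on at least 1 day. The windows below run from 80 bases before the start to 19 bases after it, 5′ to 3′ on the strand of the gene. Capitals mark the ETS core TTCCG, the YY1 motif ATGGCG, the GC box GGGCGG and the CCAAT box, each on either strand, the TATA box TATAA on the strand of the gene, and the run of C and further pyrimidines that begins exactly at the start. Matches of different motifs may overlap, as they do in Rpl37. Rps16 and Rps19 have their matches outside the stretch shown, and Rpl5 has none. The first set holds members whose start carried the pyrimidine run.
Rps6 (chr4:86857348-86857447, minus strand): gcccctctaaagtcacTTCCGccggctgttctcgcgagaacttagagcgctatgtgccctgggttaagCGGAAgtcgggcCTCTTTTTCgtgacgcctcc
Rps15a (chr7:118116128-118116227, minus strand): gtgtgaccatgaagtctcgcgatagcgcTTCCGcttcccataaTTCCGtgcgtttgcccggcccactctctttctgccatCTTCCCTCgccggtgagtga
Rps21 (chr2:180257299-180257398, plus strand): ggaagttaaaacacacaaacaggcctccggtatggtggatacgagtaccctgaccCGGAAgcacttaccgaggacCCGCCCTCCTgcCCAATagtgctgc
Rpl28 (chr7:4792885-4792984, plus strand): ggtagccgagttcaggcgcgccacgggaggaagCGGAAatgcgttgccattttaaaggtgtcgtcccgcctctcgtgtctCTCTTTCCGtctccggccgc
Rpl38 (chr11:114668500-114668599, plus strand): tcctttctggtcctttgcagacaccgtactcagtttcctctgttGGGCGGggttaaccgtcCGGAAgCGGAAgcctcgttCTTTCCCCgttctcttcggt
The second set holds the 4 members with TATAA 20 to 40 bases before the start, and Rps27 among them also began with the pyrimidine run.
Rpl22l1 (chr3:28805428-28805527, plus strand): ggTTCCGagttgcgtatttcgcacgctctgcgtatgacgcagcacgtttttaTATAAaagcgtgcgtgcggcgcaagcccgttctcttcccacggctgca
Rps26 (chr10:128626487-128626586, minus strand): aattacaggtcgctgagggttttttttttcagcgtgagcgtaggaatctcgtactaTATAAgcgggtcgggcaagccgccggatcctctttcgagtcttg
Rps27 (chr3:90213629-90213728, minus strand): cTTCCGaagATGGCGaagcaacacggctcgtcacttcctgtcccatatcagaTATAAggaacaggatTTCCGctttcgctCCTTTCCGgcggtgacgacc
Rps9 (chr7:3703961-3704060, plus strand): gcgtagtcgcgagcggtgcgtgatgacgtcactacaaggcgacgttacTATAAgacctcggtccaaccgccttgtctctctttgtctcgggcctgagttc
The last set holds members whose accessibility is described below: the highest per length with an entry besides Rps21 (Rpl37 and Rps19), members whose counts changed between days (Rpl6, Rpl9, Rpl13, Rps16), and 2 members with roles beyond the ribosome's frame (Rplp0, Rpl5).
Rpl37 (chr15:5116533-5116632, plus strand): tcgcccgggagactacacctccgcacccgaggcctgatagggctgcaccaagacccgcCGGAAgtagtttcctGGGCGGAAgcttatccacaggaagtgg
Rps19 (chr7:24884512-24884611, plus strand): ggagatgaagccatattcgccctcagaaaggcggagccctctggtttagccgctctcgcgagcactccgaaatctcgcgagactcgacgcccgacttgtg
Rpl6 (chr5:121204421-121204520, plus strand): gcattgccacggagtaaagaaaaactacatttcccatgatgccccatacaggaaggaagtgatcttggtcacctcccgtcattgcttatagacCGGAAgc
Rpl9 (chr5:65391412-65391511, minus strand): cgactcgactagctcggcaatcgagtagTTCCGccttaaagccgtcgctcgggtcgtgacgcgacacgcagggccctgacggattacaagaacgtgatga
Rpl13 (chr8:123102270-123102369, plus strand): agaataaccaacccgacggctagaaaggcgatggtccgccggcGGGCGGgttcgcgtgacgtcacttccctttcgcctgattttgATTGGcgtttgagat
Rps16 (chr7:28350609-28350708, plus strand): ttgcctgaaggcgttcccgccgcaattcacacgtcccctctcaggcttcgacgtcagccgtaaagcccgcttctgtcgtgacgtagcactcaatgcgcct
Rplp0 (chr5:115559387-115559486, plus strand): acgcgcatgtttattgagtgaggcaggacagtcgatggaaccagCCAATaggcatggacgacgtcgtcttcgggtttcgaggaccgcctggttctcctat
Rpl5 (chr5:107900448-107900547, plus strand): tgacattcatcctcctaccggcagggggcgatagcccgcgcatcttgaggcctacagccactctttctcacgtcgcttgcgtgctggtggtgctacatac

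Over the full windows, the ETS core was the most common of the motifs searched. It stood in 42 of 49 member windows (85.7%), against 56.6% of the 8863 windows whose start lay in any promoter-class peak, meaning a peak to which the authors gave a gene, and 29.9% of all 32851 windows. The YY1 motif stood in 14 (28.6%), against 18.4% and 8.93%. A GC box stood in 28 member windows (57.1%), against 72.6% of windows in promoter-class peaks and 35.7% of all. A CCAAT box stood in 16 (32.7%), against 40.2% and 37.4%. The median GC content was 58% in member windows, 63% in windows of promoter-class peaks and 52.7% in all windows.

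Elements tied to the start itself were searched on the strand of the gene. TATAA stood somewhere in 13 windows (26.5%), against 6.995% of windows in promoter-class peaks and 17.5% of all. At 20 to 40 bases before the start it stood in 4 (8.16%: Rpl22l1, Rps26, Rps27 and Rps9), against 1.32% and 3.52%. A C with at least 4 pyrimidines after it began exactly at the annotated start in 8 (16.3%), against 2.31% and 2.51%. These 8 were Rpl14, Rpl28, Rpl38, Rplp2, Rps15a, Rps21, Rps27 and Rps6. An annotated start that lies a base or more away from the true one would hide such a run, so its share depends on the annotation. The windows of Rpl22 and Rpl5 held none of the motifs searched. A match is a match of letters, and the differences between these shares were described, not tested.

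**Figure D1:**
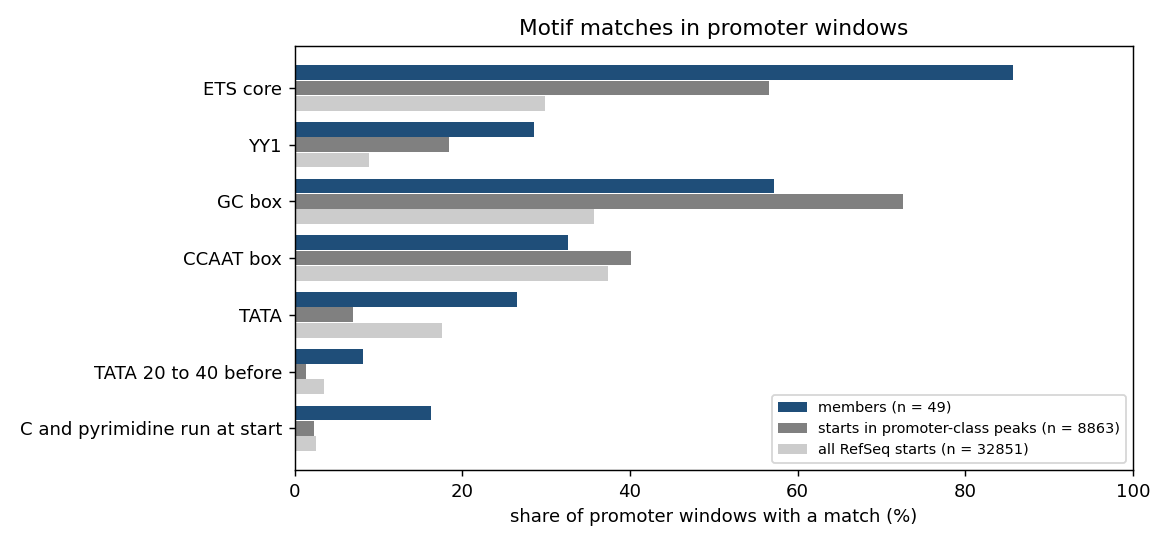
Share of RefSeq promoter windows with a match to each motif (horizontal axis, percent). Bars are for the 49 members with a window, the 8863 windows whose start lay in a promoter-class peak of day 0, and all 32851 windows. The member bar is the longest of the 3 for the ETS core (85.7%), YY1, both TATAA searches and the pyrimidine run, and is shorter than the bar of promoter-class peaks for the GC and CCAAT boxes.

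Motif content and level of opening were compared within the members alone. Those with an ETS core (41 with a level on day 0) had a median of 69.9 normalised counts per kb, and the 7 without had 56.8. The 4 with TATAA near the start had a median of 87.2, against 68.2 in the other 44. For TATAA anywhere in the window the order was the reverse, with 63.2 in 13 members and 71.5 in the 35 without. The CCAAT box also went with the lower median, at 66.4 (16 members) against 69.2 (32 members). For the YY1 motif the medians were 75.6 (13 members) and 66.4 (35 members), and for the GC box 72.3 (28 members) and 61.6 (20 members). For the pyrimidine run the medians were 72.4 (8 members) and 67.1 (40 members). These medians describe these genes on 1 day and carry no test.

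Counts in peaks ranged from 4474964 to 14913397 per library, of which mitochondrial peaks took 56.4% to 93.2%, so that nuclear peaks held 781309 to 3345583 counts. The mitochondrial share was lower with Kdm5c siRNA than with scramble, with means (± SD) of 63.8 ± 6.26% and 73.5 ± 2.85% for day -2. For day -1 they were 90.02 ± 2.49% and 92.3 ± 1.01%, and for day 0 they were 84.1 ± 4.58% and 88.8 ± 1.77%. Of 12 preadipocyte and fibroblast markers, 9, 7 and 7 had an authors' peak on the 3 days. Of 8 mature adipocyte markers, 1, 0 and 1 had one, and of 14 markers of other cell types, 6, 0 and 1 had one.

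Most peaks sat at an end of their gene, be it the first or the last, and most covered the RefSeq start where one was given. On days -2, -1 and 0, 55 of 63, 47 of 61 and 49 of 64 member peaks covered an end of the gene's span, and 60, 57 and 60 lay within 1 kb of one. Where RefSeq gave a start, it lay inside the peak in 46 of 47, 40 of 47 and 42 of 48 cases. The centre of the peak was at a median of 23.5 bp downstream, 35.5 bp upstream and 4.25 bp downstream of the start. The peaks of Rpl18 did not cover its RefSeq start on any of the 3 days, and the single peak of Rpl3l, the muscle form of Rpl3, lay 387 bp from an end of its gene.

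Some member peaks held another gene's start. This was so for 8 peaks on day -2 (12.7% of members), 8 on day -1 (13.1%) and 7 on day 0 (10.9%), against 14.9%, 16.96% and 16.7% of all promoter-class peaks. The partners were Lrsam1 at Rpl12, Sphk2 at Rpl18, Mgat2 at Rpl36al, Lias at Rpl9, Rab13 at Rps27, Ndufa7 at Rps28, and the transcripts Gm32950 at Rpl22l1 and 9430083M05Rik at Rpl22. Apart from Sphk2, whose strand was not compared, all run in the opposite direction to the member. The Rpl18 peak held the start of Sphk2 and not that of Rpl18. Counts in such a peak cannot be divided between the partners, so the values of these 8 members are shared with their neighbour. Only starts with a RefSeq promoter window at hand were searched, and such windows covered 49 of the 65 members. More member peaks may therefore hold the start of a neighbour.

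Small nucleolar RNAs, which guide the modification of ribosomal RNA, are often made from introns of ribosomal protein genes. RefSeq placed 30 of them inside 19 of the 65 members (29.2%), against 2.50% of 8803 coding genes with an authors' peak on day 0. Rpl13a held 4 (Snord32a, Snord33, Snord34 and Snord35a), and Rpl17, Rpl5 and Rps12 held 3 each. This bears on which genes are members. RefSeq lists 84 coding genes whose name fits the rule, and 20 of them were never named by the authors. Several of these had a peak over their start that carried a neighbour's or a guest's name: Nkiras1 at Rpl15, Arpc5l at Rpl35, Iqcg at Rpl35a, Med22 at Rpl7a, Vps52 at Rps18, Snora21 at Rpl23, Snord14a at Rps13, Snora78 at Rps2 and Snord15a at Rps3. On day -2 the peak over the start of Rps12 was likewise named Snord100, which is why Rps12 has no member peak that day.

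Member promoters lay a little below the middle of the range of open promoters. The class compared holds every peak of a gene, while a member with several peaks enters with its highest only. Levels were compared as normalised counts per kb of peak, where a normalised count is the raw count divided by the library's size relative to the others of its day. The median member had 81.6 per kb on day -2, against 84.1 over all nuclear promoter-class peaks. On day -1 the medians were 55.2 and 64.1, and on day 0 they were 69.7 and 77.2. Members above the median of the class numbered 27 of 63, 22 of 61 and 24 of 64. Their peaks had about the usual width, at a median of 679, 578 and 665.5 bp against 649, 625 and 669 bp. Large subunit members had medians of 83.9, 59.3 and 71.8 per kb in the order of the days, and small subunit members had 78.4, 50.7 and 66.4.

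The order of members was largely the same each day. Spearman's rho of the levels over the 60 members present on all days was 0.675 between days -2 and -1, 0.817 between days -1 and 0 and 0.799 between days -2 and 0, as a description in which both levels come from the same genes. Averaged over the days, Rps21 of the small subunit was highest at 158 per kb, followed by Rpl37 at 153, Rpl7 at 131 and Rps19 at 123, the gene most often mutated in Diamond-Blackfan anaemia. At the low end were Rps15a at 50.6, Rps23, a protein of the decoding centre, at 50.5, and Rpl39, at the exit of the nascent chain, at 48.0. Peak coordinates are those of the deposited tables (GRCm38/mm10), and no source used here says if their starts count from 0 or 1. On day -2 the Rps21 peak ran from chr2:180256668 to 180257669, the Rpl37 peak from chr15:5116040 to 5116941 and the Rpl7 peak from chr1:16104372 to 16106023, each over an end of its gene.

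In the scramble libraries Rps21 had 208 ± 14.4 counts per kb on day -2 (SD, n = 4), 110.2 ± 9.98 on day -1 and 160.1 ± 21.7 on day 0. Rpl37 had 196 ± 34.3, 132 ± 11.5 and 134 ± 7.43 on the same days. Among promoter-class peaks Rps21 stood at percentiles 98.1, 90.5 and 96.7 and Rpl37 at 97.5, 95.2 and 93.9, and the libraries of these 2 genes overlapped on each day. Rpl39 had 48.2 ± 12.6, 58.7 ± 16.6 and 40.5 ± 12.3, and Rps15a had 63.4 ± 8.50, 39.2 ± 17.3 and 47.8 ± 7.10. For Rps15a, Rps23 and Rpl39, mean ± SD overlapped for every pair of them on each day, and differences between their levels were not tested. Over all members the coefficient of variation between scramble libraries had a median of 18.2%, 22.1% and 21.95% on the 3 days. Each day has its own peak set and scale, so a mean over the days serves only to order the members, and no level is compared between days here.

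**Figure D2:**
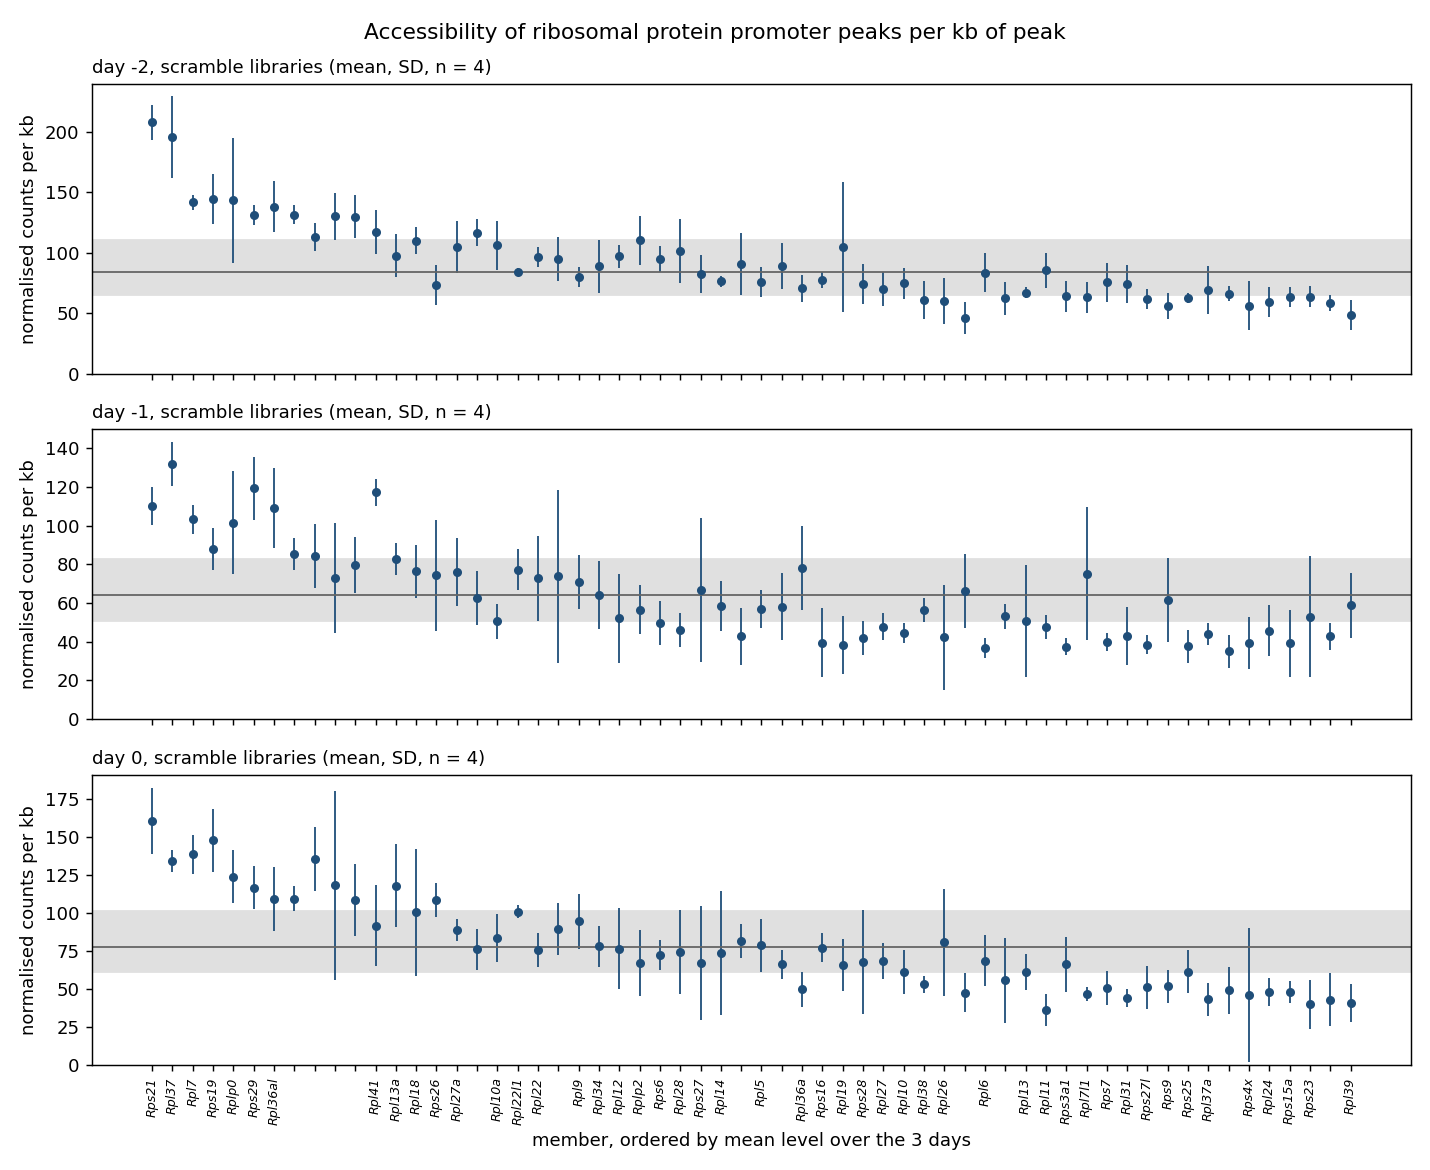
Mean normalised counts per kb of peak in the 4 scramble libraries of each day (points, with SD bars) for the 60 members with a peak on all days, ordered by their mean over the days. The line and band are the median and the middle range, from the lower to the upper quartile, of all nuclear promoter-class peaks. Names are given for members with a RefSeq window and for Rpl7 and Rps29. Rps21, at 208, 110.2 and 160.1, and Rpl37 lead, and most members lie in or below the band.

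The paralogue pairs were compared per length. Rpl36al, the autosomal paralogue of the X-linked Rpl36a, had 138 ± 21.2, 109.3 ± 20.7 and 109 ± 21.0 per kb in scramble on days -2, -1 and 0 (SD, n = 4), and Rpl36a had 70.4 ± 11.4, 78.3 ± 21.7 and 49.6 ± 11.4. The Rpl36al peak holds the start of Mgat2 as well. Rpl22 and its paralogue Rpl22l1 had 96.6 ± 8.32 and 84.1 ± 3.19 on day -2 and, in the other order, 75.6 ± 11.1 and 100.7 ± 4.23 on day 0. Rps27 had 82.5 ± 15.8, 66.6 ± 37.1 and 67.0 ± 37.5, and the p53-induced Rps27l had 61.6 ± 7.94, 38.5 ± 5.00 and 51.0 ± 14.1. Rpl7 had 141 ± 6.35 on day -2, and Rpl7l1, which acts in ribosome assembly, had 63.1 ± 12.8.

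Of the members with a peak on some days only, Rpl3l and Rps4l had the fewest counts on day 0. Rpl3l had a peak of 140 bp on day 0, with 8.47 normalised counts on average. Rps4l had peaks of 803 bp on day -2 and 115 bp on day 0, Rpl8 of 241 bp and 456 bp on the same days, Rps15 of 501 bp on day -2 and Rps12 of 508 bp and 733 bp on days -1 and 0. Per kb, Rpl8 had 98.0 and 60.5 normalised counts, Rps15 had 85.4 and Rps12 had 52.1 and 56.7, so on day -2 Rpl8 and Rps15 were above the median of promoter-class peaks. Too few counts for a test were left at Rpl19, Rpl26, Rpl7l1, Rps23 and Rps4x on day -1 and at Rps4l on day 0, so 63, 56 and 63 members were tested on days -2, -1 and 0.

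With Kdm5c siRNA, no member promoter passed the test for a gain or loss of accessibility on any day. On day -2 the edgeR quasi-likelihood test with Benjamini-Hochberg adjustment over all peaks called 0 of 63 members at an adjusted p under 0.05, and DESeq2 called 0 too. Of all 49455 peaks tested, 2 were called (0.00404%). At an unadjusted edgeR p under 0.05 there was 1 member (1.59%), against 4.63% of all peaks, and by DESeq2 there were 0, against 3.58%. On day -1, 0 of 56 members were called by edgeR and 0 by DESeq2, with 0 of 23304 peaks called in all (0%), and 1 member (1.79%) had an unadjusted edgeR p under 0.05, against 5.38%, as did 1 of 61 by DESeq2, against 5.02%. On day 0 edgeR and DESeq2 called 0 members, with 1 of 28398 peaks called in all (0.00352%). There, 6 of 63 members (9.52%) had an unadjusted edgeR p under 0.05, against 5.99% of all peaks, and 7 of 64 by DESeq2, against 5.62%. The mitochondrial share moved with the siRNA arm, as given above, and with mitochondrial peaks left out the count of called members was 0 on each day.

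The members as a group had medians close to 0. Their median log2 fold change was -0.017 on day -2, -0.030 on day -1 and 0.027 on day 0. The medians over all nuclear promoter-class peaks were 0.028, -0.00069 and -0.014. Members above and below 0 numbered 30 and 33, 25 and 31, and 33 and 30. Values reached from -0.55 (Rps23) to 0.53 (Rplp1) on day -2, from -0.58 (Rps27) to 0.66 (Rpl6) on day -1 and from -1.22 (Rpl3l) to 0.67 (Rplp1) on day 0. The large subunit members had medians of 0.0047, -0.043 and 0.035 and the small subunit members -0.049, 0.072 and 0.015. Since these libraries come from many nuclei, fewer open copies and less opening per copy cannot be told apart, and since the scaling sets the bulk of peaks to no change, a shift shared by all promoters would not show. Scaled to total counts instead, mitochondrial ones included, the median of all peaks moved to 0.44, 0.38 and 0.56 on the 3 days and that of the members to 0.43, 0.36 and 0.58, so the signs given here are relative to the bulk of peaks.

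**Figure D3:**
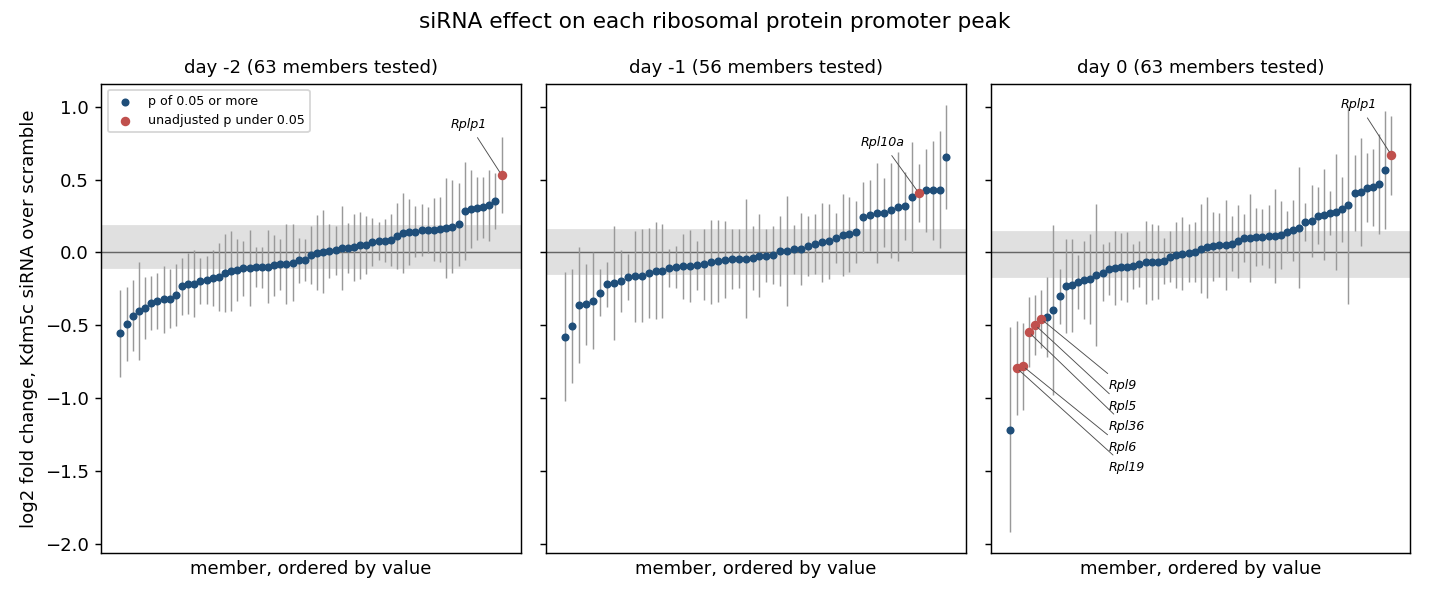
Log2 fold change of Kdm5c siRNA over scramble (vertical axis, with SE bars) for each tested member on each day, ordered by value. The band is the middle range, from the lower to the upper quartile, of all nuclear promoter-class peaks, and members with an unadjusted p under 0.05 are named. Most points lie in or near the band on each day, and 1, 1 and 6 members are named on days -2, -1 and 0.

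The stalk proteins Rplp0, Rplp1 and Rplp2 recruit translation factors to the large subunit. Rplp1 had the smallest p of day -2. Its peak held 35.9, 50.5, 30.3 and 59.9 normalised counts with Kdm5c siRNA and 19.0, 35.4, 38.5 and 28.2 with scramble. The arms overlapped, and log2 of their ratio was 0.53 (SE 0.26, adjusted p = 0.98 by edgeR). On day 0 it held 56.3, 43.7 and 38.5 with Kdm5c siRNA and 21.4, 25.3, 39.3 and 28.2 with scramble, or 0.67 (SE 0.27, edgeR adjusted p = 0.73). One scramble library stood above the lowest Kdm5c siRNA library. On day -1 the sign was the opposite, at -0.36 (SE 0.40), and that peak had 14.9 counts on average. For Rplp0 the values were 0.07 (SE 0.16), -0.02 (SE 0.18) and -0.20 (SE 0.18) in the order of the days. For Rplp2 they were -0.32 (SE 0.20), -0.36 (SE 0.28) and 0.30 (SE 0.23). All 3 stalk genes were below 0 on day -1, and their signs differed on days -2 and 0.

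Rpl5 and Rpl11 form, with the smallest ribosomal RNA, the particle that binds Mdm2 and holds up p53 when ribosome assembly fails. On day 0 the Rpl5 peak held 28.1, 63.2 and 53.3 normalised counts with Kdm5c siRNA and 49.4, 73.7, 72.5 and 87.2 with scramble. The arms overlapped, with a log2 change of -0.50 (SE 0.21, adjusted p = 0.77 by edgeR). The Rpl11 peak had a value of the other sign, with 11.2, 20.9, 23.3 and 24.1 counts with scramble and 29.5, 28.8 and 24.7 with Kdm5c siRNA. These arms did not overlap, and the log2 change was 0.47 (SE 0.34, adjusted p = 0.92 by edgeR). On days -2 and -1 Rpl5 had 0.15 (SE 0.18) and 0.14 (SE 0.21), and Rpl11 had -0.07 (SE 0.26) and -0.12 (SE 0.32). Mdm2 was not among the peaks called with Kdm5c siRNA.

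Other members of the large subunit had the smallest p-values of day 0. The Rpl6 peak (chr5:121204360-121204912 on that day) held 14.7, 15.8 and 31.3 normalised counts with Kdm5c siRNA and 43.8, 24.2, 43.0 and 40.2 with scramble. On the log2 scale this is -0.78 (SE 0.30), with an unadjusted p of 0.0091 and an adjusted p = 0.71 by edgeR. One scramble library, replicate 2, lay below the highest Kdm5c siRNA library. On day -2 the value of Rpl6 was -0.43 (SE 0.24) and on day -1 it was 0.66 (SE 0.36). Rpl19 had 29.5, 17.7 and 14.8 with Kdm5c siRNA on day 0 and 47.2, 30.8, 28.3 and 29.5 with scramble, or -0.79 (SE 0.32, edgeR adjusted p = 0.73). Rpl9, whose peak also holds the start of the lipoate synthase gene Lias, had 57.6, 49.3 and 58.8 against 67.4, 95.8, 62.6 and 77.8, or -0.46 (SE 0.20, edgeR adjusted p = 0.78). All 3 of its Kdm5c siRNA libraries lay below all 4 scramble libraries. Rpl36 had -0.55 (SE 0.24, edgeR adjusted p = 0.78). Rpl36 and, below, Rpl31 were chosen after their values were seen.

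The arms did not overlap at 0 members on days -2 and -1, where 2.87% and 3.27% of all peaks had such arms. On day -2 these were 1.51% of peaks with Kdm5c siRNA above and 1.35% with it below, and on day -1 they were 1.58% and 1.69%. On day 0 this was so at 4 of 63 members, against 6.22% of all peaks. Kdm5c siRNA was above scramble at Rpl11, Rpl31 and Rpl37 (3.11% of all peaks had this order) and below it at Rpl9 (3.11%). Rpl37 had 139, 146 and 141 against 109, 119, 119 and 125 normalised counts, or 0.27 on the log2 scale (SE 0.15, adjusted p = 0.86 by edgeR), and on days -2 and -1 it had -0.10 and -0.17. Rpl31 had 50.9, 42.8 and 41.7 against 39.3, 34.1, 28.3 and 32.2, or 0.41 (SE 0.26, edgeR adjusted p = 0.90).

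On days -2 and -1, Rplp1 and Rpl6, given above, were again among the 3 members with the smallest p. Rpl28 on day -2 had 31.0, 31.7, 35.2 and 31.1 normalised counts with Kdm5c siRNA and 45.5, 63.0, 41.4 and 34.6 with scramble, or -0.49 (SE 0.25, edgeR adjusted p = 0.98). Rpl22l1 had 66.9, 65.6, 85.1 and 38.3 against 84.8, 84.0, 77.9 and 83.7, or -0.35 (SE 0.19, edgeR adjusted p = 0.98), and Kdm5c siRNA replicate 4 was far below the rest. On day -1 Rpl10a had 50.1, 69.6, 74.8 and 54.3 against 49.9, 54.9, 36.4 and 42.7, or 0.41 (SE 0.20, edgeR adjusted p = 0.905). Rpl36al had 71.1, 81.2, 75.9 and 79.6 against 117, 90.2, 89.6 and 74.8, or -0.28 (SE 0.16, edgeR adjusted p = 0.93). In each case the arms overlapped.

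Small subunit members with known roles were not called on any day. In the order of the days, Rps6, the substrate of S6 kinase, had log2 changes of -0.017 (SE 0.20), 0.12 (SE 0.26) and -0.0058 (SE 0.20). Rps19 had -0.055 (SE 0.15), -0.09 (SE 0.17) and -0.08 (SE 0.16). Rps21 had -0.10 (SE 0.14), -0.10 (SE 0.14) and 0.14 (SE 0.15). Rps27l had 0.31 (SE 0.21), 0.08 (SE 0.25) and 0.22 (SE 0.25), while its paralogue Rps27 had -0.08 (SE 0.28), -0.58 (SE 0.44) and 0.42 (SE 0.37). Rpl13a of the large subunit, which also acts in interferon-controlled translation, had 0.08 (SE 0.18), -0.04 (SE 0.21) and -0.30 (SE 0.19). Of the paralogues, Rpl22 had 0.03, -0.19 and 0.11 and Rpl22l1 had -0.35, -0.02 and -0.11. The X-linked members Rpl10, Rpl36a, Rpl39 and Rps4x had 0.15, 0.44, 0.45 and 0.32 on day 0 and 0.01, -0.32, -0.0030 and 0.28 on day -2, none of them called. On day -1, leaving out 1 library at a time gave -0.09 to 0.10 for Rpl10, -0.19 to 0.11 for Rpl36a and -0.71 to -0.28 for Rpl39. Rps4x had too few counts for a test on that day.

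Changes between days were tested on peaks that could be matched. Each day has its own peaks, so a peak counted as the same when its day versions overlapped each other by at least 50% of their length on all days. This left 13675 peaks, 44 of them members, and 13674 were tested in 1 fit over the 23 libraries. Day and any handling that went with it cannot be told apart. The values below are normalised over all libraries and so are on another scale than those above.

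In scramble cells edgeR called 2 of 44 members from day -2 to day -1 (4.55%), against 5.73% of all matched peaks, 1 higher (background 3.17%) and 1 lower (2.57%). Rpl7, of the large subunit, rose: its peak held 180.0 to 188 normalised counts on day -2 and 253 to 293 on day -1, groups that did not overlap, a log2 change of 0.54 (SE 0.12, edgeR adjusted p = 0.0014). It stayed at 234 to 286 on day 0. Rpl6 fell by 1.07 on the log2 scale (SE 0.30, edgeR adjusted p = 0.017). It held 36.9, 29.5, 46.3 and 37.7 normalised counts on day -2 and 18.7, 14.5, 19.9 and 19.3 on day -1. The call of Rpl6 was lost without day -2 replicate 3 (-0.95) or day -1 replicate 2 (-0.96), and that of Rpl7 was kept without any 1 library. With Kdm5c siRNA, Rpl7 had 0.34 in this step (SE 0.12, edgeR adjusted p = 0.058) and Rpl6 had 0.01 (SE 0.28), neither called. The scramble median over members was -0.080, against 0.011 over matched promoter-class peaks.

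From day -1 to day 0, 4 scramble members rose and 0 fell. This is 9.09% called, against 6.86% of all matched peaks, of which 2.7% rose and 4.16% fell. Rpl6 returned to 45.3, 25.4, 44.5 and 41.2, or a log2 change of 1.12 (SE 0.31, edgeR adjusted p = 0.014). Rpl9 rose from 54.7, 36.3, 38.0 and 48.1 to 69.7, 100.6, 64.8 and 79.7, or 0.82 (SE 0.21, edgeR adjusted p = 0.0070). Rps6, of the small subunit, rose from 33.6, 54.5, 43.4 and 34.4 to 72.0, 65.9, 57.2 and 78.3, or 0.72 (SE 0.22, edgeR adjusted p = 0.030). Rps16, also of the small subunit, rose from 24.9, 13.3, 36.1 and 16.5 to 43.0, 34.7, 41.9 and 45.4, or 0.90 (SE 0.29, edgeR adjusted p = 0.037), and its groups overlapped through 1 library of each day. Each of these calls was lost when some single library was left out. Rpl6 was lost without day -1 replicate 2 (1.00) and Rpl9 without day 0 replicate 2 (0.67). Rps6 was lost without day -1 replicate 1, 3 or 4 or day 0 replicate 1, 2 or 4 (0.61 to 0.72), and Rps16 without day -1 replicate 1, 2 or 4 or day 0 replicate 1, 3 or 4 (0.69 to 0.96). A lost call did not always come with a smaller change: without day -1 replicate 1, Rps16 had 0.96, against 0.90 with all libraries. With the scaling taken from promoter-class peaks, Rps6 (0.64) and Rps16 (0.82) were lost as well. In the Kdm5c siRNA arm the same step gave 0.44 (SE 0.22) at Rpl9 and 0.58 (SE 0.22) at Rps6. Rps16 had 0.01 (SE 0.29) there and Rpl6 had -0.34 (SE 0.31), and none of these was called. The member median in scramble was 0.093, near the 0.085 of matched promoter-class peaks.

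With Kdm5c siRNA, 1 of 44 members was called in each step (2.27%), against 6.37% of matched peaks from day -2 to day -1 and 3.79% from day -1 to day 0. Peaks that fell were 2.8% and 2.28% of all, and peaks that rose 3.57% and 1.51%. Rpl13 fell by 0.98 (SE 0.29, edgeR adjusted p = 0.026) in the first step, from 36.0, 45.3, 30.4 and 44.4 to 29.9, 10.5, 20.9 and 17.05, and in scramble it had -0.63 (SE 0.30). Rps15a fell by 0.93 (SE 0.27, edgeR adjusted p = 0.029) in the second, from 33.8, 57.0, 56.2 and 72.9 to 20.8, 25.5 and 37.3. In scramble it had -0.69 (SE 0.27), with 34.8, 48.4, 27.1 and 72.9 on day -1 and 34.8, 26.6, 26.7 and 26.1 on day 0. Rpl13 was lost without day -2 replicate 2 or 4 or day -1 replicate 2, 3 or 4 of Kdm5c siRNA (-0.80 to -1.005), and Rps15a without day -1 replicate 2, 3 or 4 or day 0 replicate 1 or 2 (-0.75 to -0.93). The member medians were -0.025 and 0.13, against -0.017 and 0.066 over matched promoter-class peaks. At an unadjusted edgeR p under 0.05 there were 6 and 8 members in the scramble steps and 5 and 8 in the Kdm5c siRNA steps, against 19.6%, 21.5%, 20.7% and 17.5% of all matched peaks. These are 13.6%, 18.2%, 11.4% and 18.2% of the members. DESeq2 called 2, 4, 2 and 1 members in the same 4 steps, against 5.47%, 6.54%, 6.15% and 3.71% of peaks. The 2 days did not overlap at 3, 5, 3 and 7 members, against 11.1%, 10.9%, 11.1% and 14.4% of peaks. Comparisons of successive days share the libraries of day -1, so the fall and return of Rpl6 in scramble rest on the same 4 low libraries.

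**Figure D4:**
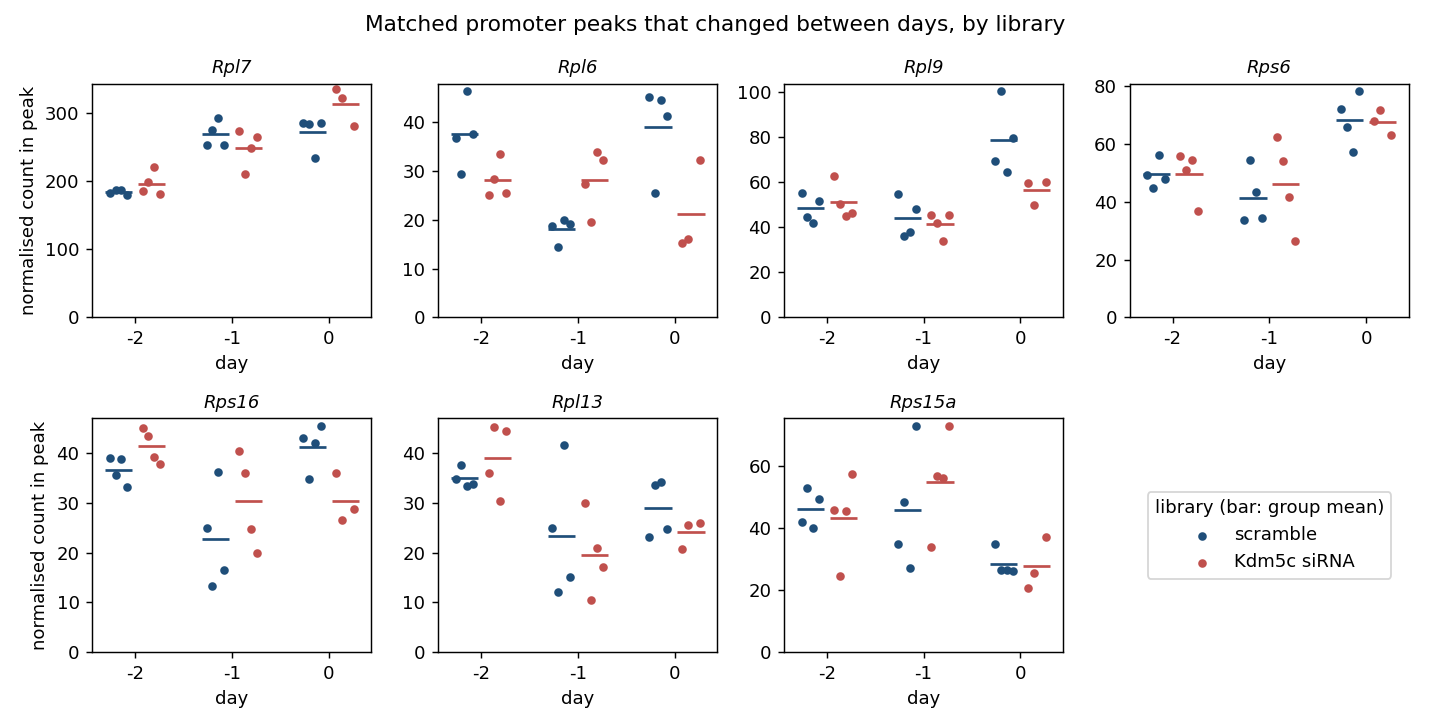
Normalised counts in each library (points) with group means (bars) on days -2, -1 and 0 for the 7 matched members called between days, scramble beside Kdm5c siRNA. In scramble, Rpl7 steps up after day -2, at 180.0 to 188 and then 253 to 293, and Rpl6 dips on day -1 to between 14.5 and 19.9.

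Peak width moved with these calls. Between days -2 and -1 the median width ratio of matched members was 0.859, against 0.899 over all matched peaks, and between days -1 and 0 it was 1.13 against 1.03. The Rpl6 peak was 571, 381 and 552 bp wide on days -2, -1 and 0. Rpl9 had 766, 482 and 805 bp, Rps6 had 662, 646 and 918 bp, and Rpl7 had 1651, 2011 and 1900 bp. Rpl13 went from 663 to 357 bp in the first step, and Rps15a from 903 to 577 bp in the second. With the width of each day's peak as an offset, so that counts per length were tested, 0 of the 8 calls, in 7 genes, were kept. Rpl6 then had -0.49 and 0.58 (edgeR adjusted p = 0.33 and 0.29) in scramble, Rpl7 had 0.25 (adjusted p = 0.16) and Rpl9 had 0.08 (adjusted p = 0.88).

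The offset brought 6 other calls in 4 genes, all higher per length on day -1 than on day -2, and 5 of them are given here. The share of all matched peaks called with the offset is not given, so this count has no background beside it. Rpl22l1 had 0.60 in scramble (edgeR adjusted p = 0.026) and 0.91 with Kdm5c siRNA (adjusted p = 0.00039). Rps29 had 0.58 and 0.41 (edgeR adjusted p = 0.0026 and 0.046), and with Kdm5c siRNA Rpl27 had 0.79 (adjusted p = 0.026). The offset also moved the median of all matched peaks in this step by 0.16, so relative to the bulk these changes are smaller. Which day changes of members pass therefore turned on whether counts or counts per length were tested.

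**Figure D5:**
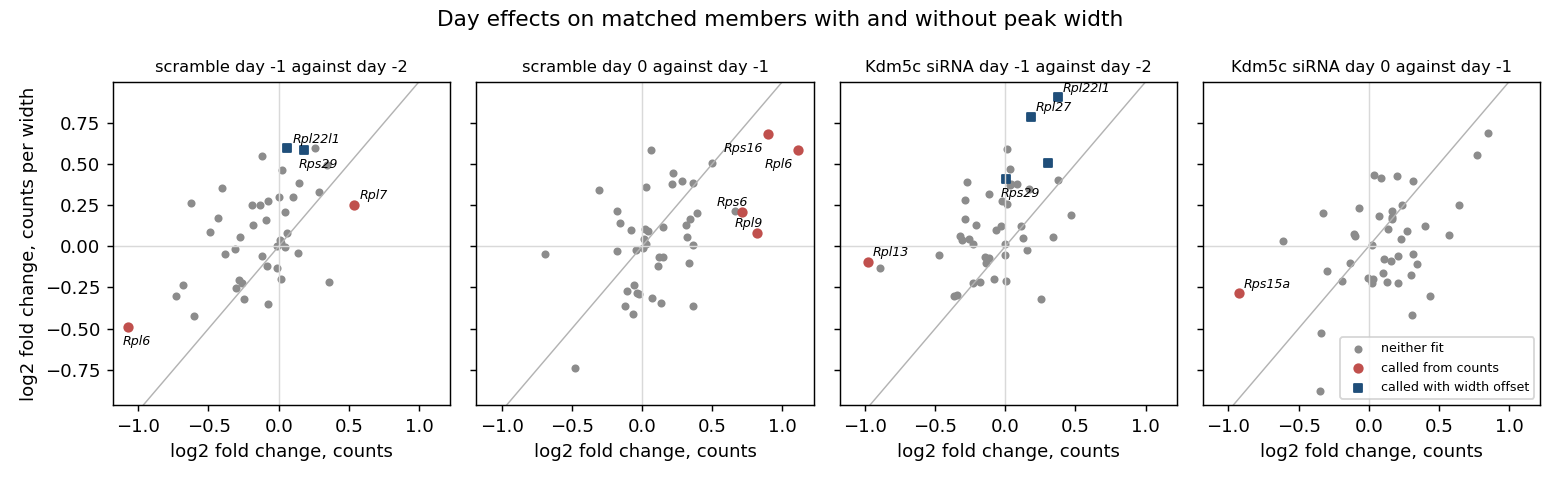
Log2 fold changes of the 44 matched members in the 4 steps between days, from counts (horizontal axis) and with peak width as an offset (vertical axis), with equal values on the diagonal. The named members called from counts, such as Rpl6 at -1.07 and 1.12, lie nearer to 0 on the vertical axis, and none of them is called there.

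The effect of Kdm5c siRNA differed between days at 0 of 44 members, whether day -1 was set against day -2 or day 0 against day -1, and 0 of all 13674 matched peaks were called in either test (0%). At an unadjusted edgeR p under 0.05 there were 1 and 4 members, against 4.92% and 5.21% of all peaks, and DESeq2 called 0. Rpl6 had the largest values, at 1.08 (SE 0.41, edgeR adjusted p = 0.96) and -1.46 (SE 0.44, unadjusted p = 0.0012, edgeR adjusted p = 0.78). Its scramble libraries were lowest on day -1, and its Kdm5c siRNA libraries, at 25.01 to 33.6, 19.5 to 34.0 and 15.2 to 32.2 over the 3 days, overlapped from day to day.

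No gene from the lists around the ribosome was called with siRNA. Of 62 genes for ribosome assembly and RNA polymerase I, 52, 49 and 50 were tested on days -2, -1 and 0, and edgeR called 0. Their median log2 changes were 0.025, 0.0065 and 0.022. Those with an unadjusted edgeR p under 0.05 numbered 1, 3 and 4, against 4.63%, 5.38% and 5.99% of all peaks. Of 26 regulators of ribosomal protein output, 21 were tested each day and 0 called, with medians of -0.013, -0.076 and -0.015. Myc, which drives ribosome production, had the smallest p of the regulators on day -1, at 0.61 (SE 0.24, edgeR adjusted p = 0.86). Ribosomal protein genes outside the naming rule were not called either: in the order of the days Rpsa had -0.04, -0.23 and 0.16, and Rack1 had -0.06, -0.27 and 0.22.

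Between days, 16 regulators and 44 assembly genes were matched. In scramble from day -2 to day -1, edgeR called 4 regulators and 0 assembly genes, against 5.73% of all matched peaks. Rps6kb1, the S6 kinase gene, rose by 0.90 (SE 0.26, edgeR adjusted p = 0.018), Yy1 by 0.49 (SE 0.13, adjusted p = 0.013) and Mdm2 by 0.37 (SE 0.12, adjusted p = 0.043), and Myc fell by 0.66 (SE 0.21, adjusted p = 0.045). From day -1 to day 0, where 6.86% of all matched peaks were called, Myc rose by 0.80 (SE 0.22, edgeR adjusted p = 0.013), and the methyltransferase gene Fbl of the nucleolus fell by 1.08 (SE 0.34, adjusted p = 0.033). With Kdm5c siRNA, where 6.37% and 3.79% of peaks were called in the 2 steps, Rps6kb1, Mdm2 and the small nucleolar particle gene Gar1 rose in the first step by 0.97, 0.40 and 0.55 (edgeR adjusted p = 0.011, 0.025 and 0.023). The nucleolar helicase gene Ddx21 rose by 1.44 (SE 0.29, edgeR adjusted p = 0.00060) in the second. The width offset was not examined gene by gene for these lists.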

How the data were processed

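For the 23 ATAC-seq libraries the submitters' processing notes name the trimmer cutadapt (2.3), the aligner Bowtie2 (2.2.9), the peak caller MACS2 (2.1.1), the counter HTSeq (0.9.1) and DESeq2 (1.24.0), with the build GRCm38/mm10. As deposited by the authors, each day has its own peaks, with raw read counts per peak and library, and a table of the same peaks in which the signal is the count divided by 1 constant per library (checked to a relative tolerance of 1e-08). The tables also give each peak a gene or none. The sources used here do not state a shift of reads for the transposase or a removal of duplicates.

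The counts were tested per day in edgeR 4.0.16 (R 4.3.3): filterByExpr, TMM, quasi-likelihood F test, Benjamini-Hochberg adjustment over all peaks, threshold 0.05. SE is the log2 fold change divided by the square root of F. Steps between days used 1 fit of 13675 matched peaks (bedtools 2.31.1), and DESeq2 1.42.0 was the second tool. Normalised counts are counts over the TMM-scaled library size relative to its mean. The siRNA tests and the scramble steps were also run on simulated counts, with results not given here. The Kdm5c siRNA steps and the tests of the siRNA effect between days were not. Motifs were searched in RefSeq windows of GRCm38.p6 in Python 3.11.15.

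Members and gene lists were chosen with earlier results of these data known. Genes named are members called in a step (at most 6 per direction), in siRNA comparisons without calls the 3 with the smallest p, the 4 highest and the lowest per kb, those with a peak on some days only, and 25 preset genes (stalk proteins, p53 or anaemia roles, paralogues), of which 21 are members. The others (Rps27a, Rpl3, Rpl10l, Rpl39l) had no peak under their name. A few genes that the rule names are not reported here.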

Additional observations from a re-analysis of the deposited data

Results flagged for a closer look

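In 8 of the 167 groups of 4 libraries with normalised counts of a named member, the library at one end stood far from the other 3 for the spread of its group. Chance gives this in about 1 group in 20. Rps21 in scramble replicate 2 on day -2 held 229.56 normalised counts, with the other 3 libraries at 199 to 202. Rpl7 in Kdm5c siRNA replicate 3 on day -2 held 286.33, with the others at 229 to 238. Rpl9 in Kdm5c siRNA replicate 1 on day -2 held 78.08, against 58.1 to 60.3. Rpl10 in Kdm5c siRNA replicate 2 on day -1 held 64.95, against 45.05 to 47.04.

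Rpl19 in scramble replicate 1 on day 0 held 47.2 normalised counts, against 28.3 to 30.8 in the other 3 libraries, and is part of the comparison in which Rpl19 had a log2 fold change of -0.79. Rps15a in scramble replicate 1 on day 0 held 33.71, against 25.3 to 25.8. Rpl28 in Kdm5c siRNA replicate 3 on day -2 held 35.18, against 31.0 to 31.7. For Rpl22l1 the library was the lowest one: scramble replicate 3 on day -2 held 77.93, against 83.7 to 84.8.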

How the results depend on the processing

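Member calls were 0 in each siRNA comparison and each test of the siRNA effect between days. Leaving out any library gave 0 to 0 calls. The exception was total counts on day -2, with 2 members called, Rplp1 among them. The share of all peaks called is not given here for total counts, the width offset, scaling on promoter-class peaks or left-out libraries. Member counts under these settings therefore have no background beside them. Total counts moved the siRNA medians to 0.4347, 0.3579 and 0.5825 on days -2, -1 and 0 (all peaks 0.44, 0.38 and 0.56) and Rplp0 on day 0 to 0.3725. No filter gave a day -2 median of -0.0631. Without 1 library the siRNA medians ranged from -0.1048 to 0.0257, -0.0684 to 0.0457 and -0.0355 to 0.0505.

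Calls between days were less settled. Leaving out 1 library gave 1 to 3 calls and medians of -0.1299 to -0.0141 for scramble day -1 against -2, and 2 to 4 and 0.0411 to 0.1483 for day 0 against -1. With Kdm5c siRNA it gave 0 to 2 and -0.0867 to -0.023, then 0 to 1 and 0.0761 to 0.1697. The libraries without which each call was lost are given with it above. Rplp2 was called from day -1 to day 0 with Kdm5c siRNA without day -1 replicate 4 (1.22) or day 0 replicate 1 (0.94).

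The width offset gave 0 calls for scramble day 0 against -1, 4 for Kdm5c siRNA day -1 against -2 and 0 for day 0 against -1, with medians of 0.0701 for scramble day -1 against -2 and 0.0782 and 0.0212 for the Kdm5c siRNA steps. It turned Rps27 (0.3559, scramble, first step), Rps21 (0.2157, scramble, second step), Rpl9 (0.3907 and -0.3004, Kdm5c siRNA, both steps) and Rpl36al (-0.1764, Kdm5c siRNA, second step). Scaling on promoter-class peaks gave 2 calls and a median of 0.016 for scramble day 0 against -1, 2 calls for Kdm5c siRNA day -1 against -2, and a median of 0.076 for day 0 against -1. DESeq2 gave 2 calls for Kdm5c siRNA day -1 against -2, adding Rpl7 (0.34). A 90% overlap matched 1041 peaks and left 4 members, with 0 calls in each of the 4 steps. Its medians were -0.0176 for scramble day 0 against -1 and -0.1984 for Kdm5c siRNA day -1 against -2. The cause of these and the other changes was not tested.

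Same-numbered libraries did not deviate together (correlations -0.046 to 0.17), so numbers were not taken to pair them. With the replicate block, members called were 0, 0 and 0 by siRNA, 2, 4, 1 and 1 between days and 0 and 0 for the siRNA effect between days, as without it. Low counts limit Rpl19, Rpl26, Rpl7l1, Rps23, Rps4x and Rps4l, and on day 0 the SE of a member ranged from 0.13 to 0.70.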
